A study of Rattus norvegicus with 4 samples.

Results

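Glutathione, thioredoxin and redox genes were followed in footpad skin of the hindlimb of irradiated rats, a model of radiation dermatitis. The rats were Sprague Dawley, which is outbred. The genes were chosen by symbol, with earlier results of these data known. The symbols covered glutathione transferases, glutathione peroxidases, peroxiredoxins, thioredoxin and glutaredoxin families, superoxide dismutases, glutathione synthesis genes and quinone reductases. They also covered metallothioneins 1 to 3, catalase, and Hmox1, Hmox2, Slc7a11, Srxn1, Nfe2l2, Keap1, Fth1 and Ftl1. This gave 63 of the 18957 genes or entries in the tables. The libraries were unirradiated skin of day 0 and irradiated skin of days 3, 6 and 9, with 1 library for each day. By the protocol, 4 doses of 10 Gy were given on days 1, 2, 4 and 5 as 9 MeV electrons at 500 cGy/min, so that 2 doses preceded day 3 and 4 preceded days 6 and 9. The labels give no transgene, sex or age, and do not say how many animals went into a library. The sample descriptions differ from this protocol, naming day 1 for the day 0 sample and 1 irradiation day for each other sample, and the sample titles were followed here.

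Glutathione is a tripeptide that cells make from cysteine, glutamate and glycine. It feeds the peroxidases that remove hydroperoxides, the transferases that couple it to reactive compounds, and the glutaredoxins that reduce protein disulfides. Thioredoxin, recharged by thioredoxin reductase, runs in parallel and supplies the peroxiredoxins. The transcription factor Nrf2, encoded by Nfe2l2 and held back by Keap1, activates many genes of both systems after oxidative or electrophilic stress, and ionizing radiation produces reactive oxygen species in skin.

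The assay counted 21-base tags that begin at a CATG site, and the value of a gene is the sum of its tag copies. Each day is 1 library, so that neither a replicate error nor a test could be given, and each 95% interval in brackets covers counting error only. A gene is called higher or lower here, and is said to pass the rule, where its scaled counts differed at least 2-fold, the higher library held at least 50 counts and the interval excluded a ratio of 1. Levels are given as scaled CPM, the count divided by the scaled total of gene counts and brought to the usual common size. The libraries held between 1952921 and 1982608 gene counts. The redox genes made up 0.613, 0.741, 0.678 and 0.700% of them on days 0, 3, 6 and 9, and 40% of the redox counts came from Fth1 and Mt2A. Of the 63 genes, 58 had counts in all 4 libraries, 42 reached 50 counts in a library and 6 stayed under 10 counts in every library. Sod1, Cat, Ftl1, Nqo2, Gpx1, Prdx1, Prdx3, Prdx5, Mt1 and Mt3 were not analysed here. Keratin and desmosome genes marked the tissue as skin, with 21013 to 38510 counts of Krt1 and 11253 to 17372 counts of Dsp. The day 6 library stood apart in its skeletal muscle markers, of which 11 of the 12 found, all but Mylpf, were at 0 counts, and in its sweat gland and simple epithelium markers, of which Krt19, Aqp5 and Slc12a2 were lower than on day 0 by the rule. In bulk skin, fewer cells of a type and less RNA for each cell cannot be told apart.

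These are the most abundant tags of 10 redox genes on which the results turn, shown because each is what was counted, with the CATG site in capitals.
Slc7a11: CATGtttcttttcgataataa
Txnrd1: CATGtatttttattacagttt
Txn1: CATGcatttgacttcacagtc
Srxn1: CATGtgagaaaagcacttttt
Gsta3: CATGatcacttcctcagatat
Mgst3: CATGtacagcacagatcctga
Gpx7: CATGtaaacaaacattatctg
Hmox1: CATGgccactttgatatcagt
Glrx: CATGctaatggccagtgcccc
Glrx5: CATGagcgcgtccctgagccg
The tags of Glrx5 and Glrx lay at CATG number 4 and 8 from the 3' end of their transcripts in the deposited tables, and the other 8 at the CATG nearest that end. No tag stood under 2 genes, and no abundant tag of a redox gene was replaced between libraries by a tag 1 base apart.

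The comparisons asked how irradiated skin of days 3, 6 and 9 differed from skin of day 0. In the day 3 library 8 redox genes were higher and 3 were lower, among 37 that reached the count minimum in either library. These are 21.6 and 8.11% of the 37, beside 8.54% of all genes called higher and 7.88% called lower by the same rule. In the day 6 library 4 were higher and 5 lower of 34, which is 11.8 and 14.7%, beside 7.48 and 13.1% of all genes. In the day 9 library 12 were higher and 4 lower of 38, which is 31.6 and 10.5%, beside 10.7 and 10.4% of all genes. The shares called lower were thus near those of all genes on each day, and the share called higher was above that of all genes most clearly on day 9. A gene can reach the count minimum through its higher library alone, so these shares describe the genes and are no test.

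The family did not move as a block. Over the 55 redox genes with a mean of at least 10 counts, the median log2 ratio was 0.05 on day 3, 0.15 on day 6 and 0.20 on day 9, beside -0.01, 0.03 and 0.00 over 9876 genes with that mean. On day 9, 29 of the 55 lay above 0 and 26 below. Of the 42 redox genes that reached 50 counts in a library, 15 were higher on at least 1 later day, which is 35.7%, beside 15.6% of 5736 genes. On at least 1 later day 7 were lower, which is 16.7%, beside 19.0% of those genes. None was higher on 1 day and lower on another, and 0.697% of all genes were. Gsta3 and Txnrd1 were higher on all 3 days, and Mgst3 and Glrx5 were lower on all 3, beside 2.44 and 2.65% of all genes.

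**Figure D1:**
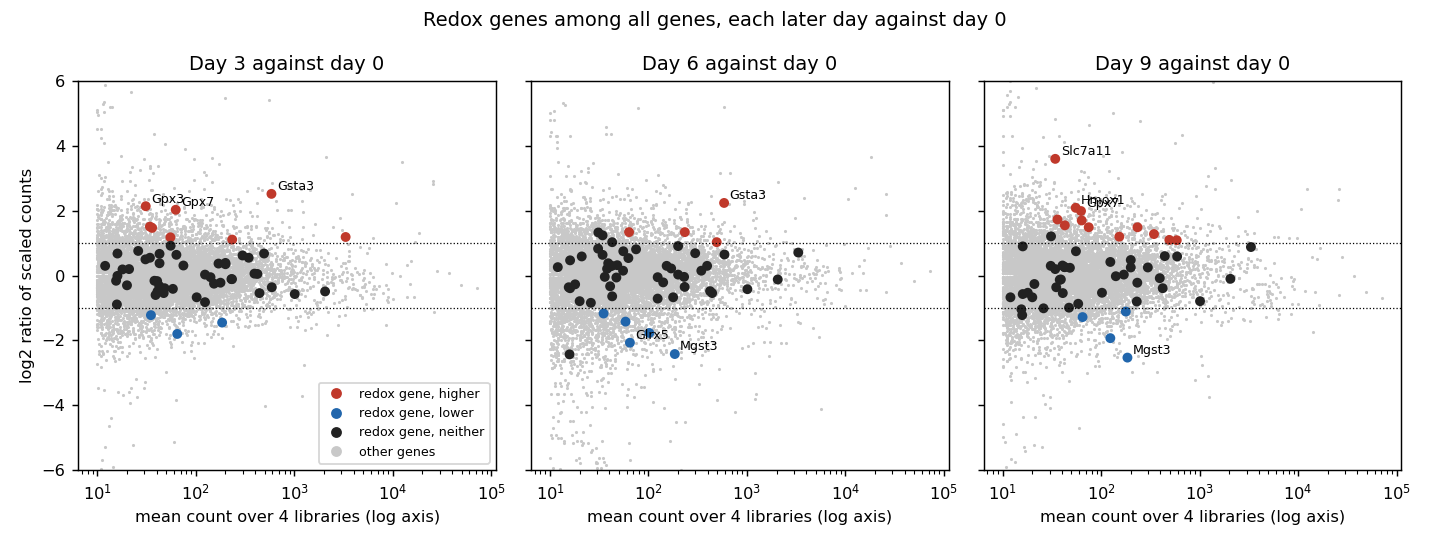
The vertical axis is the log2 ratio of scaled counts of each later day against day 0 and the horizontal axis the mean count of a gene, with redox genes in colour or black, other genes in grey and dotted lines at 2-fold. The axis ends at 6 on either side, which leaves out 10, 57 and 27 other genes on days 3, 6 and 9, and Gsta3, Mgst3 and Slc7a11 are the redox genes that lie furthest out among those past the rule.

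In the thioredoxin system, 1 of the 3 reductases, Txnrd1, was higher on every later day, Txnrd3 was lower on day 9, and thioredoxin itself was higher on day 9. Txnrd1, the cytosolic selenoenzyme that recharges thioredoxin, had 112, 244, 277 and 301 counts on days 0, 3, 6 and 9. It was 2.16-fold (1.73 to 2.74) higher on day 3, 2.54-fold (2.04 to 3.20) on day 6 and 2.81-fold (2.26 to 3.54) on day 9, each against day 0. Its 3 later libraries all lay above the day 0 library, and neighbouring later days differed by less than their counting intervals, at 1.17-fold (0.985 to 1.40) between days 6 and 3.

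Txn1, cytosolic thioredoxin, had 45, 56, 77 and 121 counts on those days and was 2.80-fold (1.99 to 4.07) higher on day 9. Srxn1, sulfiredoxin, which repairs overoxidized peroxiredoxins, had 23, 37, 46 and 65 counts and was 2.93-fold (1.82 to 5.00) higher on day 9. Both were higher in each later library than in the one before it, but not each step lay beyond counting error. Between days 6 and 3, Txn1 differed 1.42-fold (0.995 to 2.04) and Srxn1 1.28-fold (0.816 to 2.04). Between days 9 and 6 they differed 1.60-fold (1.19 to 2.16) and 1.44-fold (0.973 to 2.15). The mitochondrial pair did not pass the rule: Txn2 had 266, 248, 202 and 217 counts, and Txnrd2 had at most 23. The peroxiredoxins Prdx4, of the endoplasmic reticulum, and Prdx6, which uses glutathione, passed on no day, with log2 ratios between -0.08 and 0.37, and Prdx2 had at most 19 counts.

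Lower by the rule were Txnip and Txnrd3. Txnip, which binds and inhibits thioredoxin, had 89, 67, 32 and 46 counts and was 2.67-fold (1.79 to 4.18) lower on day 6. Txnrd3, a reductase with an added glutaredoxin domain, had 206, 117, 122 and 51 counts and was 3.82-fold (2.82 to 5.34) lower on day 9. The highest libraries of both genes were those of day 0.

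Among 9 thioredoxin domain proteins, 6 reached 50 counts and 1 passed the rule against day 0, lower on day 6. On at least 1 later day, 19.0% of all genes were lower and 15.6% higher. Txndc15 had 159, 100, 45 and 105 counts and was 3.41-fold (2.45 to 4.89) lower on day 6. Its day 6 count was under those of days 0, 3 and 9 by at least 2-fold, a pattern picked once the values were seen. The share of all genes with this pattern is not given here, so it is not read as particular to Txndc15. Txnl1, a proteasome-associated protein, had 466, 321, 312 and 673 counts, a ratio of 1.52-fold (1.35 to 1.71) on day 9 that did not pass against day 0. Set against day 6 it was 2.20-fold (1.92 to 2.52) higher on day 9.

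Glutathione supply was marked by Slc7a11 on day 9. Slc7a11, the light chain of the antiporter that brings in cystine for glutathione synthesis, had 8, 12, 19 and 98 counts on days 0, 3, 6 and 9. It was 12.2-fold (6.28 to 30.6) higher on day 9 than on day 0 and 5.15-fold (3.19 to 9.11) higher than on day 6, the largest ratio of any redox gene past the rule against day 0. Slc3a2, the heavy chain of the antiporter, had 194, 118, 111 and 177 counts and passed on no day. The enzymes of synthesis were not higher with Slc7a11. Gclc, the catalytic subunit of glutamate-cysteine ligase, had 27, 22, 15 and 16 counts, and Gclm, its modifier subunit, had 30, 16, 5 and 12. Both are too few for the rule, although the Gclm ratio of day 6 was 5.39-fold (2.24 to 19.2) lower. Gss, which completes the tripeptide, had 41, 27, 52 and 36 counts, and Gsr, which reduces oxidized glutathione, had 9 to 20.

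**Figure D2:**
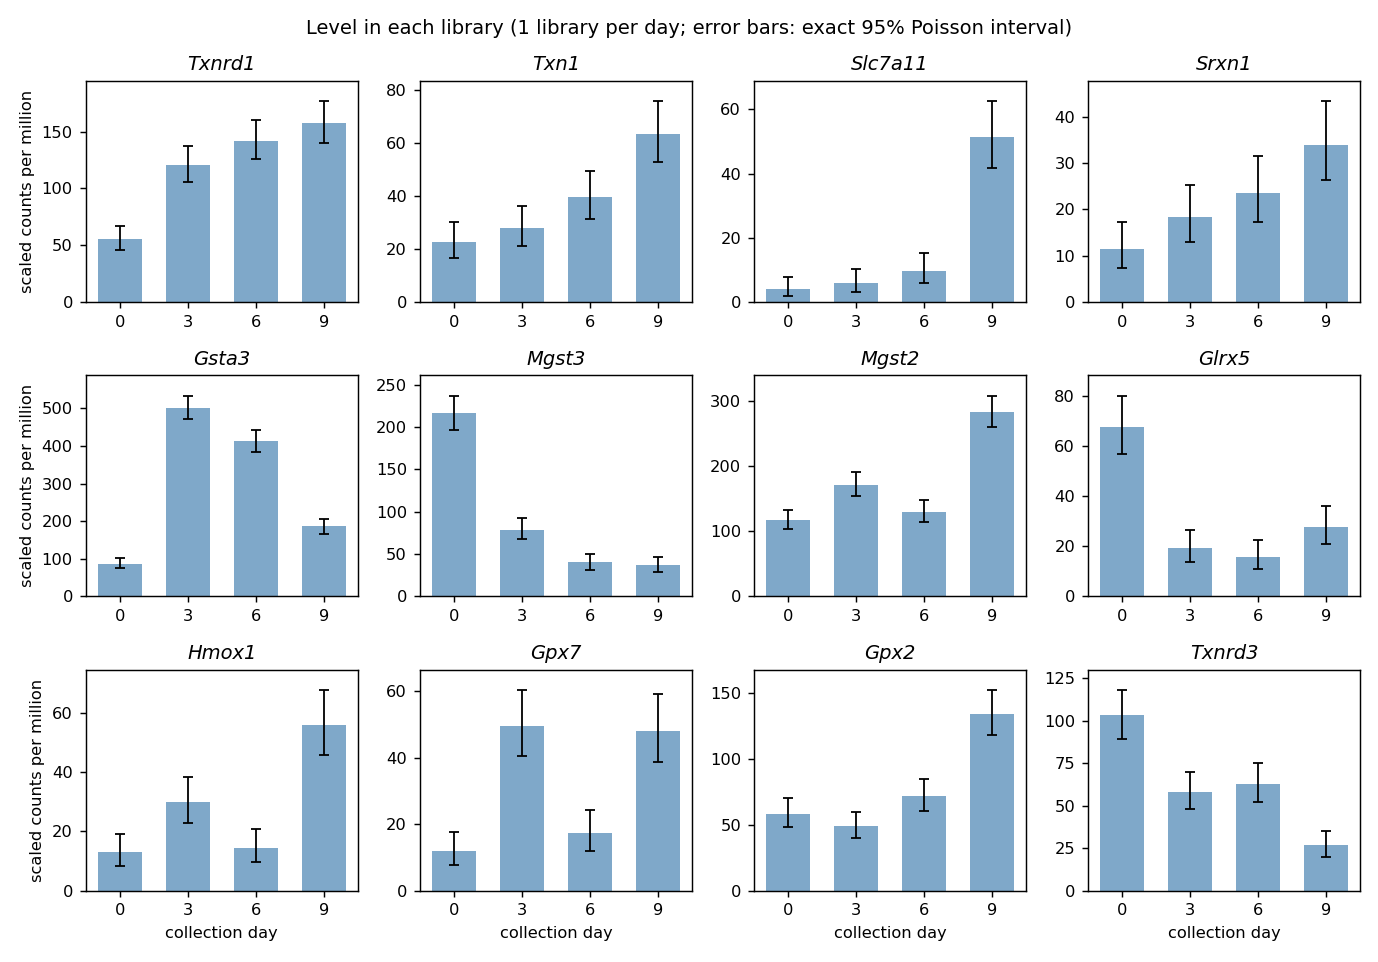
Bars give the level of 12 redox genes in scaled CPM by collection day, 1 library for each day, and error bars are exact 95% Poisson intervals that cover counting error only. Txnrd1, Txn1, Slc7a11 and Srxn1 are higher in each later library than in the one before, Gsta3 is highest on day 3 and Mgst3, Glrx5 and Txnrd3 are highest on day 0.

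The glutathione transferases split, with soluble Gsta3 higher from day 3 on and membrane-bound Mgst3 lower. Gsta3, an alpha-class enzyme whose gene ID (24421) RefSeq now names Gsta1, had 175, 1012, 803 and 355 counts on days 0, 3, 6 and 9. It was 5.74-fold (4.90 to 6.79) higher on day 3, 4.71-fold (4.01 to 5.60) on day 6 and 2.13-fold (1.77 to 2.57) on day 9. The day 9 library was 2.22-fold (1.96 to 2.52) lower than that of day 6, so the difference from day 0 was widest on day 3. Adipocyte markers summed to 193, 734, 271 and 493 scaled CPM on the same days, and on day 6 only Fabp4 among them passed the rule. Fibroblast markers summed to 11133, 52182, 40037 and 37394, and macrophage markers to 395, 835, 677 and 632. The part of these cells in the Gsta3 values was not tested. Alpha-class genes resemble one another closely, and how the authors assigned tags that fit several of them is not given in the sources used here. Gstt1, a theta-class enzyme, had 21, 61, 32 and 23 counts and was 2.85-fold (1.74 to 5.00) higher on day 3.

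Mgst3, a microsomal transferase with peroxidase activity, had 432, 159, 78 and 71 counts. It was 2.73-fold (2.27 to 3.30) lower on day 3, 5.35-fold (4.22 to 6.94) on day 6 and 5.76-fold (4.50 to 7.56) on day 9, and all its copies were of 1 tag. The other members of its family went separate ways. Mgst1 had 245, 212, 149 and 108 counts and was 2.16-fold (1.72 to 2.74) lower on day 9, though its most abundant tag alone, with 130 copies on day 0 and 72 on day 9, did not pass the rule. Mgst2, which can make leukotriene C4, had 235, 346, 254 and 543 counts and was 2.42-fold (2.08 to 2.84) higher on day 9. Gstp1, the pi-class enzyme, had 1367, 926, 995 and 752 counts, and its 1.73-fold (1.58 to 1.90) lower value on day 9 did not pass. Of 21 transferases, 12 stayed under 50 counts in every library, and Gstk1, Gstm1, Gsto1 and Gstp1 passed on no day, with log2 ratios between -0.79 and 0.91.

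Of 5 glutathione peroxidases, 3 were higher on day 3 and 3 on day 9, and none passed the rule on day 6. Of all genes, 8.54, 7.48 and 10.7% were called higher on days 3, 6 and 9. Gpx7 and Gpx8, peroxidases of the endoplasmic reticulum that lack selenocysteine, had 24, 100, 34 and 92 counts and 18, 51, 17 and 58 counts. Gpx7 was 4.08-fold (2.63 to 6.77) higher on day 3 and 3.96-fold (2.54 to 6.60) on day 9. Gpx8 was 2.77-fold (1.62 to 5.13) higher on day 3 and 3.32-fold (1.96 to 6.10) on day 9. In both genes the day 6 library lay with that of day 0 and apart from those of days 3 and 9, and Gpx7 was 2.82-fold (1.91 to 4.33) lower on day 6 than on day 3.

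Gpx3, the secreted peroxidase of plasma, had 12, 55, 30 and 27 counts and was 4.42-fold (2.41 to 9.36) higher on day 3, where its most abundant tag alone had a log2 ratio of 2.46 at 30 copies, under the count minimum. Gpx2, an epithelial peroxidase, had 117, 99, 140 and 256 counts and was 2.29-fold (1.84 to 2.88) higher on day 9. Gpx4, which reduces lipid hydroperoxides in membranes and guards against ferroptosis, had 488, 507, 340 and 355 counts and passed on no day. The superoxide dismutases Sod2 and Sod3 passed on none either, and Sod1 was not analysed here. Sod2, the mitochondrial enzyme, had 126 to 150 counts, and Sod3, the extracellular enzyme, had 34 to 44.

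Some libraries differed in other cell types beside these values. Skeletal muscle markers, 12 of 13 found, summed to 2329, 5099, 4.11 and 4655 scaled CPM on days 0, 3, 6 and 9. Sweat gland and simple epithelium markers, 5 of 8 found with Krt18 at 0 on day 6, summed to 235, 414, 62.2 and 273. Keratinocyte markers, 5 of 8 found and none at 0, summed to 26358, 21196, 34318 and 24664, a sum whose day 6 value came from Krt1, since Krt10 and Krt2 had most counts on day 0, Krt14 on day 9, and Dsp had 16992 on day 0 and 17372 on day 6. Fibroblast markers, 7 of 7 found and none at 0, summed to 11133, 52182, 40037 and 37394. Among them Lum (337, 835, 287 and 772 counts) and Col1a2 (1301, 4475, 2527 and 3247) had fewer counts on day 6 than on days 3 and 9, and the others did not. Gpx7, Gpx8, Hmox1, Keap1, Txnip and Txndc15, lower on day 6 than on day 3 by the rule, stood there beside low muscle and gland sums. On day 0, with the muscle sum at 2329, Gpx7, Gpx8 and Hmox1 were at 12, 8.98 and 13 scaled CPM. On day 6 these 3 were at 17.5, 8.73 and 14.4. Keap1, Txnip and Txndc15 had fewer counts on day 6 than on day 0. Adipocyte markers (193, 734, 271 and 493, 6 of 8 found and none at 0) and Hbb (35, 1510, 104 and 579 counts) were also lower on day 6 than on days 3 and 9, and the part of all these cells was not tested.

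**Figure D3:**
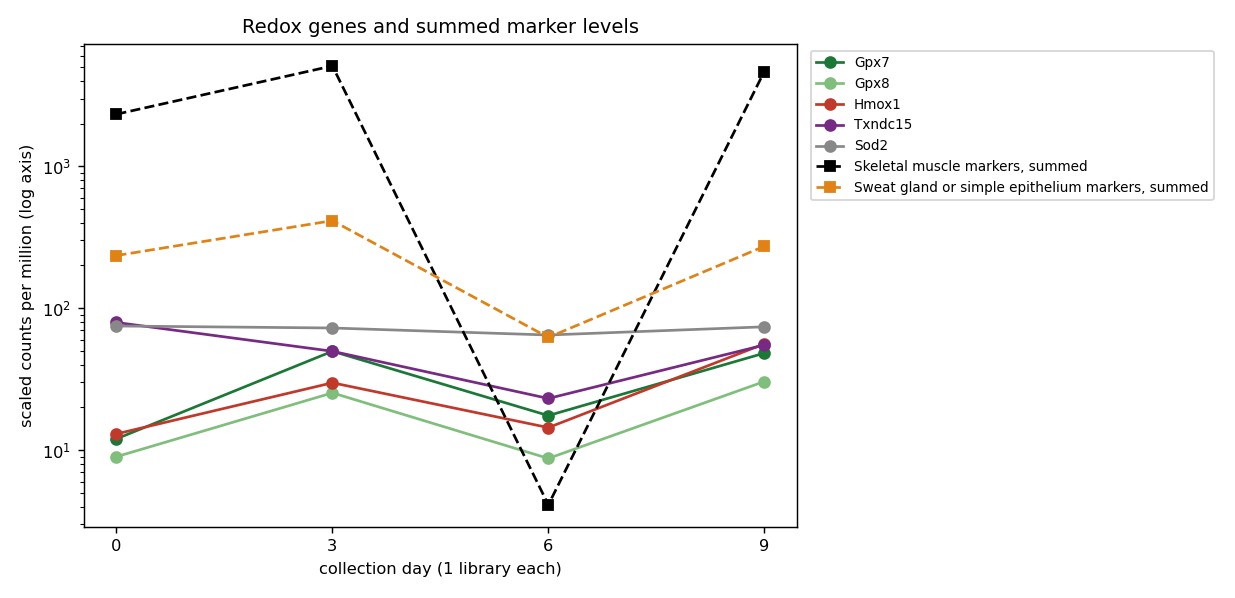
Lines give the level of 5 redox genes and the summed level of 2 marker lists in scaled CPM on a log axis, by collection day, 1 library for each. Gpx7, Gpx8 and Hmox1 lie lower on day 6 than on days 3 and 9, and Txndc15 has its lowest value there. Sod2 stays between 64.7 and 74.9 scaled CPM, and muscle markers drop to 4.11 scaled CPM on day 6.

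The glutaredoxins divided by gene, with Glrx and Glrx3 higher and Glrx2 and Glrx5 lower. Beside these, 15.6% of all genes were higher and 19.0% lower on at least 1 later day. Glrx, the cytosolic enzyme that removes glutathione from proteins, had 31, 49, 77 and 97 counts and was 2.53-fold (1.67 to 4.02) higher on day 6 and 3.25-fold (2.17 to 5.09) on day 9. Glrx3, a cytosolic iron-sulfur protein, had 297, 478, 588 and 608 counts and was 2.04-fold (1.77 to 2.35) higher on day 6 and 2.15-fold (1.87 to 2.48) on day 9. Its day 6 call sits at the limit: scaled by library totals alone the log2 ratio was 0.99, short of 2-fold. Both genes were higher in each later library than in the one before. Between days 9 and 6 the step lay within counting error, at 1.28-fold (0.943 to 1.76) for Glrx and 1.05-fold (0.94 to 1.18) for Glrx3.

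Glrx5, the mitochondrial glutaredoxin of iron-sulfur cluster assembly, had 136, 39, 31 and 53 counts. It was 3.47-fold (2.44 to 5.14) lower on day 3, 4.21-fold (2.87 to 6.52) on day 6 and 2.43-fold (1.77 to 3.42) on day 9, all through the tag printed above. Glrx2, also mitochondrial, had 54, 23, 23 and 40 counts and was 2.33-fold (1.42 to 4.03) lower on day 3 and 2.25-fold (1.38 to 3.89) on day 6. Its most abundant tag alone had 49 copies on day 0, just under the count minimum, with log2 ratios of -1.08 on day 3 and -1.03 on day 6. The day 0 library was the highest of the 4 for both.

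**Figure D4:**
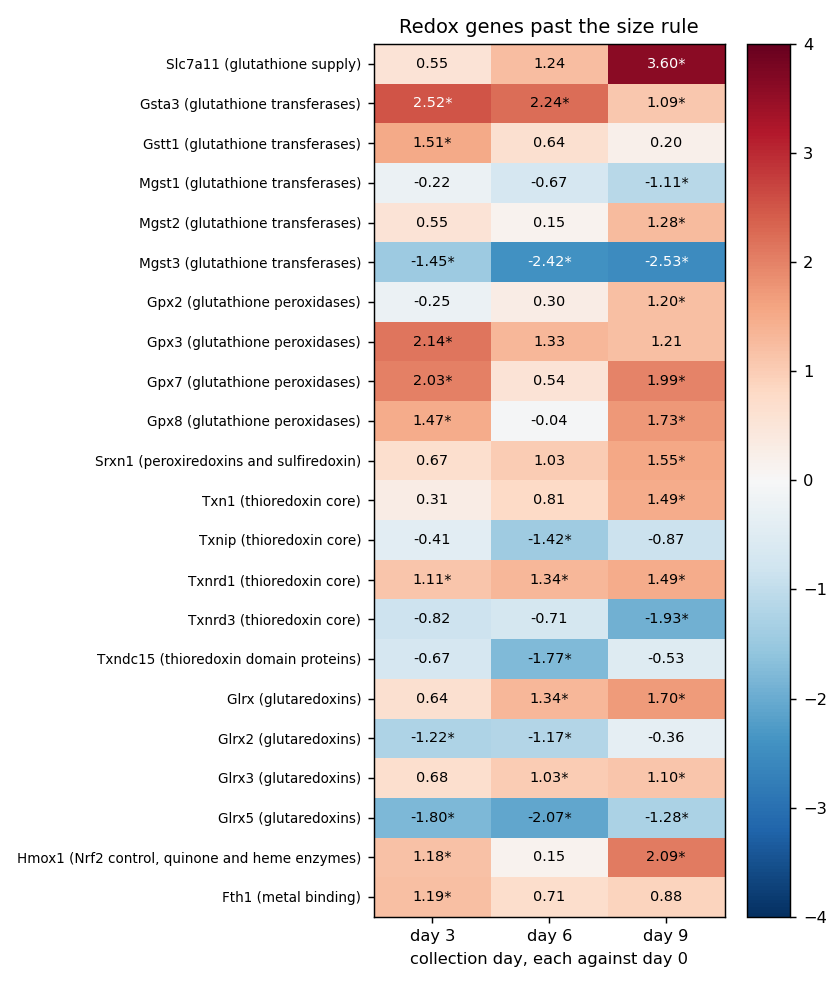
Colour and figures give the log2 ratio of scaled counts for the 22 redox genes that passed the rule on any later day, with columns for days 3, 6 and 9 against day 0 and an asterisk where the rule was passed. The column of day 9 holds 12 of the higher calls, led by Slc7a11 at 3.60, and Mgst3 and Glrx5 are blue in all columns.

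The Nrf2 regulators did not pass the rule while Hmox1 did. Nfe2l2 had 268, 250, 254 and 146 counts, a ratio 1.75-fold (1.42 to 2.15) lower on day 9. Keap1 had 42, 55, 26 and 48 counts and did not pass against day 0. Nqo1, a quinone reductase widely used as a readout of Nrf2, had 498, 391, 760 and 716 counts. It was 1.57-fold (1.40 to 1.76) higher on day 6 and 1.51-fold (1.34 to 1.70) on day 9, short of the rule, and passed only for day 6 against day 3, at 2.01-fold (1.78 to 2.28). Messenger levels of Nfe2l2 and Keap1 do not measure Nrf2 activity, which is set largely by protein stability.

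Hmox1, the inducible enzyme that breaks down heme, had 26, 60, 28 and 107 counts. It was 2.27-fold (1.43 to 3.79) higher on day 3 and 4.26-fold (2.79 to 6.91) on day 9, with the day 6 library beside that of day 0. Hmox2, the constitutive form, had 180, 237, 178 and 204 counts and passed on no day. Hbb, a beta-globin of red blood cells, was at 35, 1510, 104 and 579 counts in the same libraries. Macrophage markers, 10 of 10 found with C1qc at 0 on day 9, summed to 395, 835, 677 and 632 scaled CPM, and the part of blood or macrophages in the Hmox1 values was not tested.

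Fth1, the ferritin heavy chain that stores iron, had 1999, 4598, 3182 and 3501 counts and was 2.29-fold (2.17 to 2.41) higher on day 3. It was 1.64-fold (1.55 to 1.73) higher on day 6 and 1.84-fold (1.74 to 1.94) on day 9, both short of 2-fold. Mt2A, a metallothionein that binds zinc and copper, had 2346, 1680, 2103 and 2087 counts and passed on no day.

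Set between neighbouring days, 1 redox gene, Nqo1, was higher and 6 (Gpx7, Gpx8, Hmox1, Keap1, Txnip and Txndc15) were lower on day 6 against day 3 among 37, beside 2.88 and 6.74% of all genes. On day 9 against day 6, 7 were higher and 2 lower among 36, beside 10.0 and 4.37% of all genes. The 7 were Slc7a11, Hmox1, Gpx7, Gpx8, Mgst2, Txnl1 and Txndc15, and the lower 2 were Gsta3 and Txnrd3. These comparisons share libraries with those above and are not separate evidence. Of the 42 redox genes that reached 50 counts, 6 were higher in each later library than in the one before, namely Glrx, Glrx3, Slc7a11, Srxn1, Txn1 and Txnrd1, which is 14.3%, and 7.30% of 5736 genes at that depth had this order. The opposite order was that of Mgst1 and Mgst3, 4.76% of the 42, and of 4.90% of those genes. Both patterns were chosen after the values were seen, and a step counted whether or not it lay beyond counting error. Neutrophil markers, of which 4 of 8 were found, summed to 36.4, 30.8, 23.6 and 534 scaled CPM on days 0, 3, 6 and 9, nearly all from S100a8 and S100a9, which stressed keratinocytes also make. Cxcr2 had at most 6 counts and Csf3r at most 2, and the part of neutrophils in the day 9 values was not tested.

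Other genes of the pathway, taken from lists made with earlier results of these data known, differed by branch. Of 9 NADPH supply genes found, 8 reached 50 counts and 1 passed, beside 19.0% of all genes lower and 15.6% higher on at least 1 later day. Tkt, transketolase, had 416, 341, 318 and 172 counts and was 2.30-fold (1.92 to 2.77) lower on day 9. Of 10 NADPH oxidase genes, 4 reached 50 counts, and 2 of these were higher on day 9, beside 10.7% of all genes. Cybb, the catalytic subunit of the phagocyte oxidase, had 40, 77, 75 and 82 counts and was 2.14-fold (1.46 to 3.22) higher. Ncf4, one of its cytosolic subunits, had 24, 48, 36 and 50 counts and was 2.16-fold (1.32 to 3.72) higher, at the count minimum. No gene of these branches passed on days 3 or 6, but Cybb was already 1.90-fold (1.29 to 2.88) higher on day 3. On that day Ncf4 was 1.97-fold higher and Ncf1 3.05-fold, at 48 and 47 counts. Duox1 went the other way on day 3, with 33, 7, 2 and 63 counts.

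Of 11 genes of glutathione and cysteine turnover, 7 reached 50 counts, and of these 3 were lower on day 3, 3 on day 6 and 1 on day 9, with none higher, beside 7.88, 13.1 and 10.4% of all genes lower on those days. Ggct, which opens gamma-glutamyl peptides to 5-oxoproline, had 124, 35, 43 and 120 counts and was 3.52-fold (2.43 to 5.34) lower on day 3 and 2.78-fold (1.97 to 4.06) on day 6. Chac1, which degrades glutathione, had 102, 45, 64 and 101 counts and was 2.26-fold (1.59 to 3.31) lower on day 3. On day 9 both were close to their day 0 counts. Oplah, 5-oxoprolinase, had 70, 46, 31 and 18 counts. It was 2.17-fold (1.42 to 3.46) lower on day 6 and 3.63-fold (2.18 to 6.61) on day 9. Ggt6, of the gamma-glutamyltransferase family, had 97, 40, 35 and 48 counts. It was 2.42-fold (1.67 to 3.62) lower on day 3 and 2.67-fold (1.81 to 4.08) on day 6.

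Of 17 further partners and targets of Nrf2, 11 reached 50 counts. Of these, 2 were higher and 1 lower on day 3, none passed on day 6, and 1 was higher and 1 lower on day 9. Of all genes, 8.54 and 10.7% were called higher and 7.88 and 10.4% lower on days 3 and 9. Ephx1, the microsomal epoxide hydrolase, had 126, 503, 219 and 290 counts and was 3.96-fold (3.26 to 4.87) higher on day 3. Blvra, biliverdin reductase, which acts after heme oxygenase, was 2.28-fold (1.5 to 3.6) higher on day 3, and Maff, a small Maf partner, was 3.43-fold (2.23 to 5.61) lower. Aldh3a1, an aldehyde dehydrogenase of epithelia, had 304, 355, 307 and 63 counts and was 4.57-fold (3.49 to 6.13) lower on day 9.

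Of 11 selenoprotein and methionine repair genes, 8 reached 50 counts. Of these, 1 was higher and 1 lower on day 3, 3 were higher and 1 lower on day 6, and 2 were higher and 1 lower on day 9, beside 8.54, 7.48 and 10.7% of all genes higher and 7.88, 13.1 and 10.4% lower. Selenop, the selenium carrier listed as Sepp1, had 748, 2276, 1468 and 1985 counts and was 3.03-fold (2.79 to 3.29) higher on day 3. Selenos, a protein of the endoplasmic reticulum listed as Vimp, had 82, 80, 226 and 410 counts and was 5.22-fold (4.13 to 6.74) higher on day 9. Selenof, listed as Sep15, had 509, 300, 132 and 437 counts and was 3.74-fold (3.09 to 4.57) lower on day 6.

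The core of the antioxidant response element, the site to which Nrf2 binds, was searched as TGACNNNGC on both strands of promoter windows from RefSeq (GRCr8), each of 300 bases. It was present for 17 of the 52 redox genes with a promoter in the table, which is 32.7%, and for 13.5% of 19005 protein-coding genes. It was found for 3 of the 10 genes with a promoter that were higher on a later day (Gpx2, Gsta3 and Txnrd1), for none of 6 that were lower and for 14 of 36 that passed in neither direction. The 3 windows are shown because they belong to genes higher after irradiation, with the match in capitals, and a match does not show binding.
Txnrd1, chr7:22755855-22756154, minus strand: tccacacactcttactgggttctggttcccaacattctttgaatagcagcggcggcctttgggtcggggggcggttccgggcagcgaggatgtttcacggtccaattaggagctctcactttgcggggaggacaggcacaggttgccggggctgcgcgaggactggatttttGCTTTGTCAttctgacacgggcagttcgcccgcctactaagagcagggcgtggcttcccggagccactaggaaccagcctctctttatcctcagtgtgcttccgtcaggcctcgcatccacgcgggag
Gpx2, chr6:101229984-101230283, minus strand: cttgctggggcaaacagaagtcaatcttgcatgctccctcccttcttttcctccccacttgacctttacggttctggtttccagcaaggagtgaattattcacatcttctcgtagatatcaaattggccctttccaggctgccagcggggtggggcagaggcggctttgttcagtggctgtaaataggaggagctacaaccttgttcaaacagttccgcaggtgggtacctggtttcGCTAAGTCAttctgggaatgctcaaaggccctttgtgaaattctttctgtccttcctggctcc
Gsta3 (Gsta1 in RefSeq), chr9:31216483-31216782, minus strand: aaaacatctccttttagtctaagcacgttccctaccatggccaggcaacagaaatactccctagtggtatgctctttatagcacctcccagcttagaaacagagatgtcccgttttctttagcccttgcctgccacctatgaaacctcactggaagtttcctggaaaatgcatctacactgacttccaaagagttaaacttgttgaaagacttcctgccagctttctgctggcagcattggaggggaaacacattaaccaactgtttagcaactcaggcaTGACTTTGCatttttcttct
The match began 78 bases before the start of transcription in Txnrd1, 13 before it in Gpx2 and at base 31 after it in Gsta3, on the opposite strand in Txnrd1 and Gpx2. A loose form of the metal response element core, TGCNCNC, was counted by window and over all windows, unlike the count by gene above. It was present in 39 of 60 redox gene windows, 65%, and in 49.6% of all 33469 windows, and the Mt2A window held 5 matches.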

How the data were processed

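The deposited files were, for each library, a table of genes and a table of tags. Whole-number counts per gene were made by the authors as sums of tag copies, with tags seen once left out, as the files themselves show. The authors also give CPM values under the heading TPM; these were relative to all tags seen at least 2 times and had no length term. The genome build named in the submitters' processing notes is Rnor_6.0, while the aligner is not given in the sources used here. Libraries held 3360368 to 3592019 sequenced tags.

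Counts were joined by gene ID over all 18957 rows and scaled with TMM factors of edgeR 4.0.16 over all genes. Ratios used a prior count of 0.5 and exact 95% Clopper-Pearson intervals. No model was fitted, since 1 library for each day gives no spread. All 63 gene IDs were found in RefSeq's GRCr8 table, 1 of them (Gsta3) under another symbol. The code was tested on simulated data.

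The members and lists were chosen with earlier results of these data known. The text names all genes past the rule, the most counted gene of each role and a fixed set of regulators and enzymes. For other pathway genes it names at most 4 of a list. Alternatives covered scaling (library totals, size factors from DESeq2 1.42.0, or totals that leave out the 20 most abundant genes), count minimum, fold, interval, prior count, the authors' value and the most abundant tag.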

Additional observations from a re-analysis of the deposited data

How the results depend on the processing

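Median ratios of the redox genes stayed within 0.05 to 0.15 on day 3, 0.12 to 0.20 on day 6 and 0.15 to 0.20 on day 9 (log2) under the 3 other scalings, a prior count of 5, the authors' value and the most abundant tag. Counts of genes past the rule moved with the count minimum and the fold. With a minimum of 200 counts, 3 genes were higher and 1 lower on day 3, 1 was lower on day 6 and 5 were higher on day 9. With a minimum of 10 counts or with none, 7 were higher on day 6 and 7 lower on day 9. With a fold of at least 1.5, 5 were lower on day 3, 10 higher on day 6 and 8 lower on day 9. Scaling by library totals or the authors' value lost 1 call, Glrx3 on day 6 (log2 ratio 0.99 in either). The most abundant tag alone lost 5 calls: 4 only through the minimum of 50 counts, with log2 ratios still past 2-fold (Glrx2 -1.08 on day 3 and -1.03 on day 6, Gpx3 2.46 and Gpx8 1.38 on day 3), and Mgst1 on day 9 (-0.78). Asking for an interval bound at least 1.5-fold away lost Hmox1 on day 3 and Glrx2 on days 3 and 6. Counts near 50 limit folds to wide intervals. No paired analysis was possible because each day has 1 library.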

Other observations

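Some redox genes were read through 2 abundant tags that did not follow the same course over the libraries. For Sod2, the tag at CATG number 5 from the 3' end had 105, 92, 114 and 99 copies on days 0, 3, 6 and 9, and the tag nearest the 3' end had 40, 51, 10 and 39 copies.
Sod2, CATG number 5: CATGcagctgcaccacagcaa
Sod2, nearest the 3' end: CATGcacattacttcttaatg
The day 6 library was thus the highest of the 4 for 1 tag and the lowest for the other, while the Sod2 sum of that day was 1.16-fold (0.906 to 1.48) lower than on day 0. For Hmox2, the tag nearest the 3' end had 90, 154, 86 and 103 copies and the tag at CATG number 6 had 90, 83, 88 and 101, so that the highest day 3 value of Hmox2 came from 1 of its 2 main tags. For Mgst1, the tag nearest the 3' end had 130, 142, 88 and 72 copies and the other had 115, 70, 61 and 36.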
